A study of Mus musculus with 30 samples.

Results

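PTBP1 immunoprecipitates (IP) of axoplasm from uninjured mouse sciatic nerve were set against the starting extract of such nerves. The samples were the 3 PTBP1 IP libraries and the 3 input libraries labelled naive, 6 of the 30 samples of the series. They were chosen by label, and their raw counts were joined over the 12399 transcripts listed in both the PTBP1 table and the input table. Axoplasm is the soluble extract of ground nerve. It holds axonal content but also that of Schwann cells, fibroblasts and other nerve cells. Each sample pooled 10 nerves and each group came from 3 independent biological repeats. The IP groups used a PTBP1 antibody from Santa Cruz Biotechnology on Protein G beads. Further groups from the same series served as context: naive blocked PTBP1 IP, in which the antibody had been bound to its blocking peptide beforehand, and PTBP1 IP, blocked PTBP1 IP and input from nerve taken 7 days after crush. The labels name no genotype, strain, sex or age for the mice.

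PTBP1, the polypyrimidine tract-binding protein, has several RNA-binding domains that recognise short C- and U-rich elements. It is best known for repressing exons in the nucleus. In the cytoplasm it acts on the 3′ untranslated regions (UTRs), stability and translation of bound mRNAs. Peripheral axons hold a local pool of mRNAs whose translation responds to injury, so an IP from axoplasm asks which of the nerve's RNAs come down with the protein.

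In naive nerve 26 transcripts of 26 genes were higher in PTBP1 IP than in input. They were led by Shank1, Tox2, Ulk3, the Eif2a transcript with a retained intron, Sp100 and Pdk4, with log2 fold changes of 3.38 to 8.51. Most of them carried a long uninterrupted stretch of C and U, usually in the 3′ UTR. Of the 26, 22 (84.6%) held at least one window of 30 bases with no purine, against 7.19% of all tested transcripts with a sequence. Only 7 of the 26 were also called higher than in blocked IP. The most pyrimidine-rich 30-base window of 10 transcripts is given here because most, but not all, of the 26 hold such a stretch. Sequences are of the transcript strand in DNA letters (T for U), 5′ to 3′, from GENCODE M21 transcripts on GRCm38. Capitals mark TCTT or CTCT, the short elements that PTBP1 is known to bind.
Shank1: tTCTTCTTCTTCTTCTTCTTCTTTCTTCTT
Tox2: cCTCTTCTTCTTccccCTCTTcCTCTTCTT
Ulk3: ttTCTTTCTTTCTTTCTTTCTTTCTTTCTT
Sp100: CTCTCTCTCTCTCTCTCTCTCTCTCTCTCT
Specc1: CTCTCTCTTTCTTCTCTCTCTCTCTCTCTT
Dhx40: tCTCTCTCTCTCTCTCTcccCTCTccCTCT
Ddn: tTCTTCTTCTTCTTCTTtttTCTTttTCTT
Kdm5d: TCTTTCTTtcctTCTTCTTtttcattTCTT
P4ha2: tttccCTCTTtttttTCTTagcactaattt
Actb: gttttttttttttttttttttttttttttt

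The first 7 windows are free of purines and the window of Kdm5d holds a single A. The retained-intron transcript of P4ha2 is one of the 4 higher transcripts with no all-pyrimidine window; the others are Bgn, Ntrk2 and Kdm5d. Actb, an abundant mRNA that did not pass the test, is shown for contrast: its best window is almost all T. The Shank1 window lies at chr7:44358632-44358661 (plus strand), that of Tox2 at chr2:163323461-163323490 (plus strand), and that of Ulk3 at chr9:57595949-57595978 (plus strand). The Sp100 window lies at chr1:85709660-85709689 (plus strand) and that of Specc1 at chr11:62138336-62138365 (plus strand). The Dhx40 window lies at chr11:86769236-86769265 and the Ddn window at chr15:98804013-98804042, both on the minus strand. All 7 are in the 3′ UTR of a protein-coding transcript and within a single exon. The repeat of CT found in Sp100 recurs unchanged in the best windows of Tagln2, Csf2rb2, Urod, Mob3b, Borcs7 and Stard5. The repeat of TTTC found in Ulk3 recurs in those of Eif2a, Gldn and Fn3krp.

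The libraries held 13806960 to 21031630 counts over the joined transcripts in the 6 samples compared. The naive PTBP1 IP libraries differed among themselves: Spearman correlations were 0.715 between libraries 1 and 2, 0.701 between 1 and 3 and 0.831 between 2 and 3. Library 3 was the closest to input. Its Spearman correlation with the 3 inputs was 0.945 to 0.959, against 0.645 to 0.672 for IP library 1 and 0.785 to 0.807 for IP library 2. Listed transcripts with no count made up 16.1%, 11.3% and 1.37% of IP libraries 1, 2 and 3, and 0.637% to 0.927% of the naive inputs. Blocked IP libraries 1 to 3 had 18.6%, 25.6% and 10.6% at 0. Adipocyte markers were high in blocked IP library 1: 7 of 13 were measured, and their summed level was 160890, 22034 and 4614 CPM (counts scaled to a common library size) in blocked libraries 1 to 3. The same sum was 7121, 7784 and 5421 CPM in the IP libraries and 4145 to 4823 CPM in the inputs. The extract carried its labelled tissue: Pmp22, a protein of peripheral myelin, had 116, 87.5 and 178 CPM in IP and 239, 123 and 214 CPM in input. Fewer cells of a type and less RNA per cell cannot be told apart in such extracts.

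The question of the main comparison was which transcripts take a larger share of the RNA recovered with PTBP1 than of the extract. Counts were scaled by TMM and tested with edgeR's quasi-likelihood test in one fit of 18 libraries, two-sided, with Benjamini-Hochberg adjustment over 12393 transcripts and a threshold of 0.05. Of these, 26 were called higher, which is 0.21% of those tested, and 1 was called lower, which is 0.00807%. At an unadjusted p under 0.05, 683 were higher and 239 lower. The 3 IP libraries all lay above the 3 inputs for 1252 transcripts (10.1%) and all below for 1651 (13.3%). The median log2 fold change of all tested transcripts was -0.04. All adjusted p-values of the 27 lay between 0.024 and 0.0497, close to the threshold. Ddn, Ntrk2 and Col6a2 were the last inside it, with adjusted p-values of 0.0495, 0.0495 and 0.0497, and Hoxc9, Gltp, Tshz3, Frg1 and Thada stood just outside at 0.051. The count rests on single libraries: no transcript was called without IP library 1, without IP library 2 or without any one of the inputs, and 209 (179 higher) were called without IP library 3. With the 6 libraries compared, or the 9 naive libraries, as the whole fit, none was called, and with DESeq2's size factors in place of TMM 1 was; DESeq2's own Wald test called 371 higher and 29 lower.

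The levels behind these calls were far apart. Across the 26 transcripts the median level was 7200, 3430 and 326 CPM in IP libraries 1, 2 and 3, and 56.5, 49.7 and 52.6 CPM in inputs 1, 2 and 3. The median ratio to the mean input was 156-fold, 71.6-fold and 6.2-fold in the 3 IP libraries. Every one of the 26 was above all inputs in all 3 IP libraries, and in every one IP library 1 was highest and IP library 3 lowest. Together they took 19.3%, 14.9% and 1.56% of the counts in the IP libraries, against 0.3%, 0.314% and 0.292% in the inputs. All 26 had at least 5 counts in each of the 6 libraries.

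**Figure D1:**
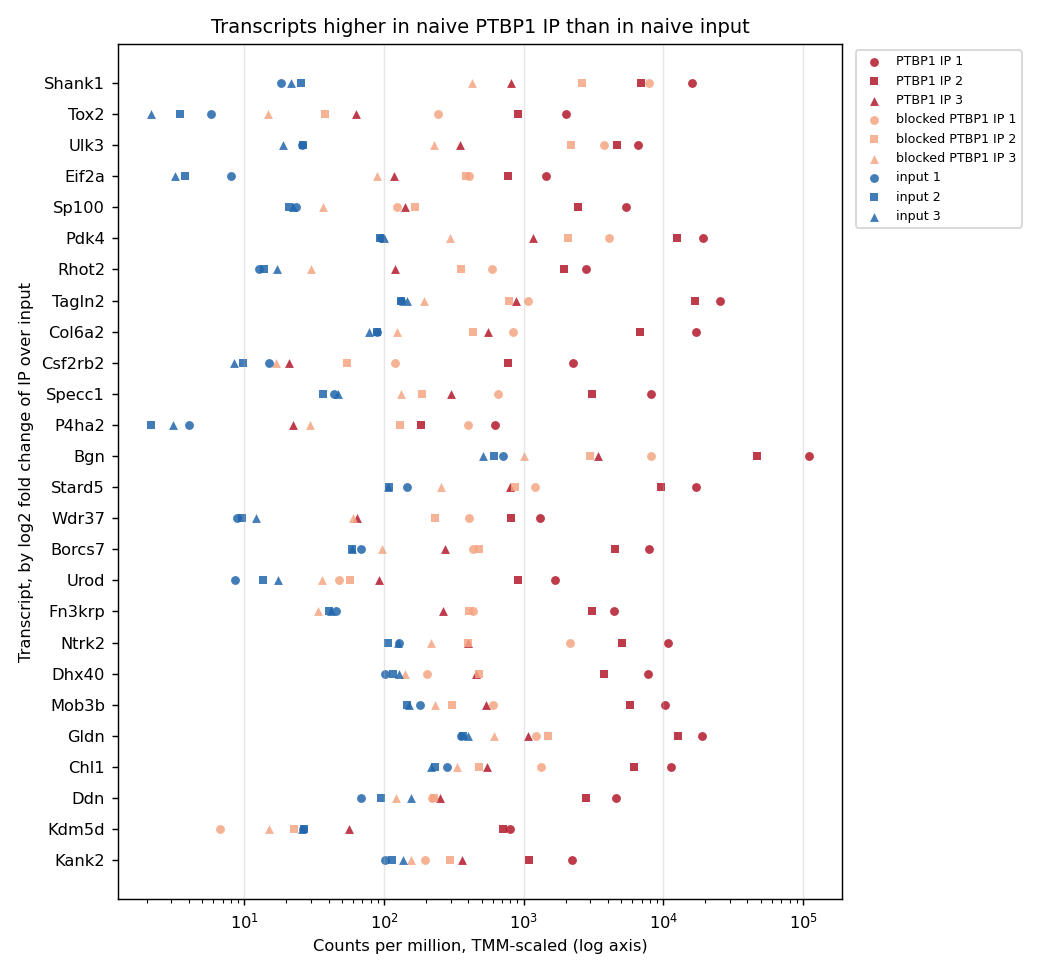
Level of each of the 26 transcripts called higher in naive PTBP1 IP than in naive input, in CPM on a log axis, with 1 point per library (PTBP1 IP, blocked PTBP1 IP and input, replicates 1 to 3 by marker shape). Transcripts run from the largest log2 fold change at the top (Shank1, 8.51) to the smallest (Kank2, 3.38); every IP point lies to the right of the inputs.

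The 26 are described here by what they encode, an order chosen after they were known that shows no enrichment of any theme. Some encode proteins known from neurons or signalling. Shank1, which encodes a postsynaptic scaffold protein, had 16100, 6880 and 804 CPM in IP and 18.2, 25.4 and 21.6 CPM in input. The groups did not overlap, and the smallest IP value was still many times the inputs; the log2 fold change was 8.51 ± 1.41 (SE, n = 3 each, edgeR adjusted p = 0.039). Its longest stretch without a purine ran to 253 bases. Ulk3, which encodes a kinase of the ULK family, had 6590, 4640 and 350 CPM in IP and 25.8, 26.3 and 18.8 CPM in input (log2 fold change 7.35 ± 1.28 SE, edgeR adjusted p = 0.039). Ntrk2, which encodes the neurotrophin receptor TrkB, had 10800, 5090 and 402 CPM in IP and 127, 106 and 126 CPM in input. Its log2 fold change was 5.51 ± 1.11 (SE), although its longest pyrimidine run was only 13 bases. Chl1, which encodes a cell adhesion molecule of the L1 family, had 11400, 6200 and 543 CPM in IP and 284, 233 and 218 CPM in input. Ddn encodes dendrin, a protein of dendrites and podocytes, and had 4580, 2810 and 252 CPM in IP and 68.1, 95.5 and 157 CPM in input. For all 5, no library of one group reached the other.

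Others encode nuclear proteins and factors of gene expression. Tox2, which encodes an HMG-box factor, had 2010, 916 and 63.4 CPM in IP and 5.8, 3.45 and 2.15 CPM in input (log2 fold change 8.04 ± 1.5 SE, edgeR adjusted p = 0.0474). Sp100, which encodes a component of PML nuclear bodies, had 5430, 2430 and 142 CPM in IP and 23.5, 21 and 22.3 CPM in input. The recovered Eif2a RNA is a noncoding transcript with a retained intron from the gene of a noncanonical translation initiation factor. It had 1450, 770 and 118 CPM in IP and 7.96, 3.76 and 3.2 CPM in input, and the lowest adjusted p of all (log2 fold change 7.29 ± 1.06 SE, edgeR adjusted p = 0.024). Dhx40, which encodes a DEAH-box helicase, had 7800, 3780 and 455 CPM in IP and 101, 116 and 127 CPM in input. Kdm5d, which encodes the Y-linked histone H3K4 demethylase, had 802, 712 and 55.7 CPM in IP and 26.1, 26.8 and 25.8 CPM in input. Again the IP and input libraries of each did not overlap.

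Some encode mitochondrial or metabolic proteins, although none of 69 measured mRNAs of the nuclear-encoded respiratory chain was called. Pdk4, which encodes a kinase that inhibits pyruvate dehydrogenase, had 19300, 12500 and 1170 CPM in IP and 95.2, 93.4 and 99.3 CPM in input, a log2 fold change of 6.84 ± 1.23 (SE, edgeR adjusted p = 0.0423). Rhot2, which encodes the mitochondrial transport GTPase Miro2, had 2810, 1940 and 120 CPM in IP and 12.7, 13.9 and 17.2 CPM in input. Urod, which encodes an enzyme of haem synthesis, had 1680, 911 and 91.4 CPM in IP and 8.61, 13.5 and 17.5 CPM in input. Borcs7, a subunit of the complex that positions lysosomes, Stard5, a sterol-binding protein, and Fn3krp, a ketosamine kinase, had log2 fold changes of 6.08, 6.25 and 5.93. The mitochondrial and lysosomal members were recovered alongside transcripts of unrelated function, and no pathway list had more than 2 called members.

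Matrix, cytoskeletal and nodal proteins were also encoded, and Bgn was the most abundant of the 26 in each IP library. Bgn encodes biglycan, a small proteoglycan of the extracellular matrix. It had 111000, 47100 and 3380 CPM in IP and 710, 610 and 508 CPM in input (log2 fold change 6.47 ± 1.25 SE, edgeR adjusted p = 0.0474). Col6a2, a chain of collagen VI, had 17200, 6760 and 558 CPM in IP and 89, 88.3 and 77.9 CPM in input. Tagln2, which encodes an actin-binding protein, had 25600, 16900 and 882 CPM in IP and 132, 133 and 146 CPM in input. Gldn encodes gliomedin, the Schwann cell ligand that clusters sodium channels at nodes of Ranvier. It had 18800, 12700 and 1070 CPM in IP and 356, 370 and 398 CPM in input (log2 fold change 4.86 ± 0.79 SE, edgeR adjusted p = 0.039). Kank2, a cortical adaptor protein, had the smallest fold change of the 26, at 3.38 ± 0.65 (SE). Specc1, Mob3b, Wdr37, Csf2rb2 and the retained-intron transcript of P4ha2 had log2 fold changes of 6.5, 5.12, 6.15, 6.53 and 6.48. Csf2rb2 and Csf2rb are near-identical copies, so the split of reads between them is uncertain.

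The single transcript called lower was Cxcl5, which encodes a neutrophil-attracting chemokine. It had 0 counts in each naive IP library and 24, 17 and 3 counts in inputs 1, 2 and 3 (edgeR adjusted p = 0.0492). Against a floor of 3 counts over the IP group, it was at least 13.4-fold lower in IP. It is lowly abundant in naive nerve, and input 3 itself sat at the floor. Among the PTBP1 libraries it reached the filter of 5 counts only in injured nerve, with 911, 558 and 4735 counts in injured IP. Its log2 fold change of injured IP over injured input was 0.13. Cxcl5, Fn3krp, Chl1, Borcs7, Stard5, Ntrk2 and Wdr37 were named as the other called transcripts, after their values were seen.

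Among all transcripts, the level in IP followed the length of the longest run of C and U. The measure is each library's log2 ratio to the mean of the naive inputs, with 0.5 CPM added to both. Where the longest run was 10 to 14 bases (5404 transcripts), the median ratio was -0.78, -0.38 and -0.07 in IP libraries 1, 2 and 3. For runs of 30 to 39 bases (373 transcripts) it was -0.03, 0.04 and 0.03. For runs of 40 to 49 bases (162 transcripts) it was 1.29, 0.8 and 0.2. For runs of 50 to 74 bases (210 transcripts) it was 2.93, 1.79 and 0.4, and for 75 to 99 bases (59 transcripts) 4.74, 3.76 and 0.71. For runs of 100 bases or more (71 transcripts) it reached 5.43, 4.17 and 1.19. The order of the bins was the same in each IP library from 30 bases upward, with much smaller steps in IP library 3. Naive inputs stayed between -0.14 and 0.13 in these bins.

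The transcripts with a run of 50 bases or more were 340 in all, or 2.74% of those tested. They took 29.7%, 23.7% and 4.7% of the counts in IP libraries 1 to 3, against 2.41%, 2.49% and 2.4% in the inputs. Their share in naive blocked libraries 1 to 3 was 6.66%, 5.87% and 2.77%, so that blocked libraries 1 and 2 lay above IP library 3. In injured blocked libraries 1 to 3 it was 10.8%, 16.1% and 3.05%, against 1.18% to 2.75% in the injured inputs. The 1.18% was that of injured input 1, where Yam1, Lars2 and Gm15564 took 38.3%, 15.4% and 3.97% of the counts. These are candidates for ribosomal RNA reads, and their part in the share was not tested. Of these 340, 185 (54.4%) were over 4-fold above the mean input in both IP library 1 and IP library 2, and 18 were among the 26 called. Of the 5404 transcripts with a longest run of 10 to 14 bases, 115 (2.13%) were. Purine runs showed a similar rise over the short bins but none beyond them. The median in IP library 1 was -1.02 for purine runs of 1 to 9 bases, -0.09 for 30 to 39 and 0.16 for 40 to 49, beside -0.87, -0.03 and 1.29 for pyrimidine runs of those lengths. Transcripts with a purine run of 50 bases or more (251) had median ratios of 0.1, -0.02 and 0.07 in IP libraries 1 to 3 and took 3.2%, 3.13% and 2.48% of the counts in IP and 2.21% to 2.48% in input. The difference was also present within classes of transcript length. Among transcripts under 2000 bases the median ratio in IP library 1 was 4.26 for runs of 50 bases or more (22 transcripts) and -0.86 for runs under 30 (4092 transcripts), and among those of 4000 bases or longer it was 3.65 (195 transcripts) and -0.3 (2931 transcripts). These are descriptions over transcripts, which are not replicates, and carry no test.

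**Figure D2:**
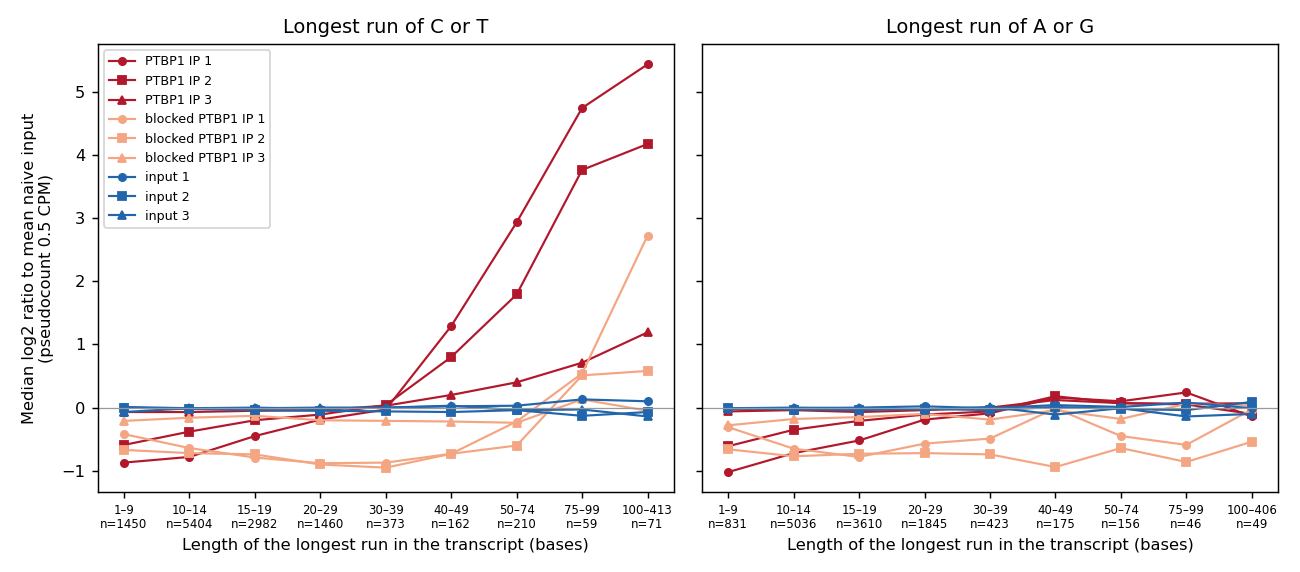
Median log2 ratio of each naive library to the mean of the naive inputs (0.5 CPM added), for transcripts grouped by their longest uninterrupted run of C or T (left) or of A or G (right), with 1 line per library and the number of transcripts under each bin. In the left panel IP libraries 1 and 2 climb to 5.43 and 4.17 at runs of 100 bases or more and IP library 3 to 1.19; in the right panel the IP libraries stay between -1.02 and 0.24.

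The levels also differed with the composition and place of the run. Among the 875 transcripts with an all-pyrimidine window, those whose window held 13 to 16 C bases of 30 (308 transcripts) had median log2 ratios of 3.15, 2.09 and 0.43 in IP libraries 1 to 3. Windows with 0 to 4 C, which are nearly pure U tracts (116 transcripts), had -0.12, -0.1 and -0.01, and windows with 21 to 30 C (28 transcripts) had -0.31, 0.04 and -0.15. Between these, windows with 5 to 9 C (228 transcripts) had 1.16, 0.92 and 0.25, and those with 10 to 12 C (86 transcripts) 2.52, 1.36 and 0.33. Windows with 17 to 20 C (109 transcripts) had only 0.2, 0.08 and 0.17. The median was thus raised for windows of 5 to 16 C and near or below 0 for windows of 0 to 4 C and of 21 to 30 C. Windows of 13 to 16 C also lay in longer runs. The median run was 52.5 bases, against 33 for windows of 0 to 4 C and 37 for those of 21 to 30 C. The C count is of the chosen window, which favours TCTT and CTCT, and not of the whole run. Restricted to runs of 40 bases or more, the medians in IP library 1 were 3.76 for 10 to 12 C (49 transcripts) and 3.64 for 13 to 16 C (234 transcripts). They were 2.64 for 5 to 9 C (132 transcripts), -0.48 for 0 to 4 C (26 transcripts) and 0.76 for 17 to 30 C (61 transcripts). The Actb window given above is nearly all T, with a run of 29 bases, and Actb had 2240, 2330 and 5080 CPM in IP and 6650, 5480 and 8360 CPM in input.

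**Figure D3:**
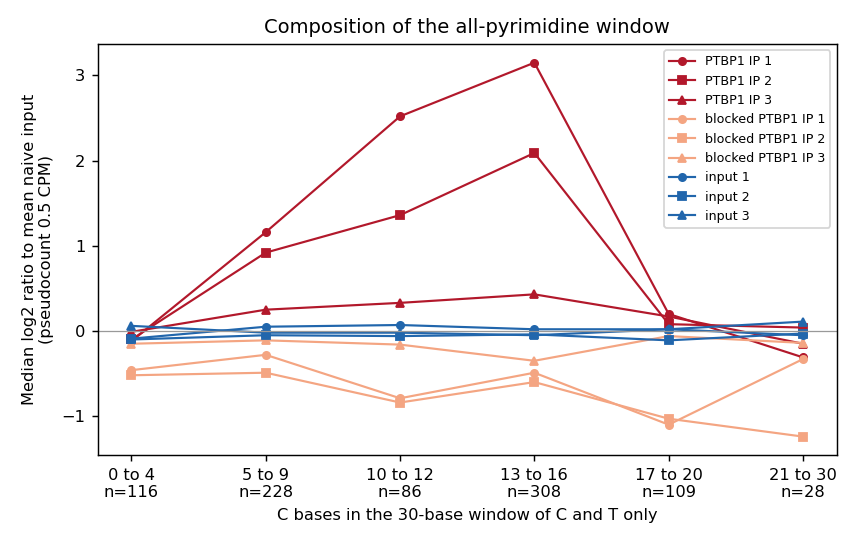
Median log2 ratio of each naive library to the mean of the naive inputs (0.5 CPM added) for transcripts with a 30-base window of C and T only, by the number of C bases in that window, with 1 line per library. IP libraries 1 and 2 peak at 13 to 16 C (3.15 and 2.09) and lie near 0 at both ends, while inputs stay near 0 throughout.

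By position, windows in 3′ UTRs (580 transcripts) had median log2 ratios of 1.47, 1.04 and 0.25 in IP libraries 1 to 3, and those in 5′ UTRs (77 transcripts) 0.29, 0.12 and -0.01. Windows in noncoding transcripts, among them retained-intron forms (203 transcripts), had 1.68, 0.81 and 0.26. Of the 22 called transcripts with such a window, 21 had it in the 3′ UTR and 1, Eif2a, in a noncoding transcript. CTCTCT occurred at least once in 25 of the 26 (96.2%) and in 61.7% of all tested transcripts with a sequence, counted on the transcript strand with overlaps. Its median density was 1.32 per 1000 bases in the 26 and 0.32 in all. The density moved with the transcripts taken: among transcripts of 1000 to 3000 bases it was 5.68 in the 10 called and 0.36 in all, and it was 0.87 in the 371 called higher by DESeq2. The densities of TCTT, 7.94 against 5.15 per 1000 bases, and of TCTTC, 2.17 against 1.47, differed less. The 26 were somewhat longer than the rest, with a median length of 3614.5 bases (quartiles 2567 and 4965) against 2736 (quartiles 1576.5 and 4222). Not every transcript with a long run was high in IP. Of 217 transcripts with a run of 50 bases or more and at least 5 CPM in input, 169 were above all inputs in both IP libraries 1 and 2, and 24 were below the highest input in both. Top2b, with a run of 123 bases in the 3′ UTR and 17 C in its window, had 149.6, 63.3 and 135 CPM in IP and 162, 199 and 289 CPM in input. Qpct and Angptl1, with runs of 88 and 83 bases in the 5′ UTR, had log2 fold changes of -1.47 and -1.24. These 3 were chosen after their values were seen.

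Different transcripts of the same gene were also compared. Sp100 had 5 listed transcripts. The one with an 88-base run was called, with a mean of 22.3 CPM in naive input. The other 4, whose longest runs were 10 to 12 bases, had mean naive inputs of only 0.522 to 2.14 CPM. They had at most 16.6 CPM in any naive IP library and log2 fold changes of -4.1 to 3.42, none called. Their low levels limit this comparison. Of 3 Col6a2 transcripts, the one with a 161-base run had 17200, 6760 and 558 CPM in IP and 89, 88.3 and 77.9 CPM in input. The other protein-coding transcript, with a longest run of 22 bases, had 1070, 751 and 1120 CPM in IP and 503, 716 and 913 CPM in input. In Wdr37 the runs were 193 and 12 bases and the log2 fold changes 6.15 and 1.53. In Specc1 they were 163 and 10 bases with 6.5 and 1.53, and in Stard5 55 and 13 bases with 6.25 and -1.44. The uncalled transcripts of Wdr37, Specc1 and Stard5 were also low, with mean naive inputs of 1.59, 4.14 and 4.29 CPM. Those of the called ones were 10.2, 42.4 and 121 CPM. Over the 169 genes that had listed transcripts both with and without a run of 30 bases or more, at 1 CPM or more in naive input, the transcript with the run had the higher ratio in 70.4%, 68% and 62.1% of genes in IP libraries 1 to 3. The median difference was 1.93, 1.4 and 0.33 on the log2 scale, and 0.33, 0.34 and 0.41 in blocked libraries 1 to 3 (57.4%, 56.2% and 59.2% of genes), against -0.02 to 0.09 in inputs 1 to 3. The median difference in IP library 3 was thus no larger than in the blocked libraries, while its share of genes was slightly larger. Where a gene had several transcripts with such a run, or several without, their log2 ratios were averaged. Among the called genes Bgn went the other way: its called transcript had a 15-base run and a log2 fold change of 6.47, and its retained-intron transcript a 23-base run and 3.36 (edgeR adjusted p = 0.828). No source used here says how reads on shared exons were divided between transcripts, so these transcript levels are not independent of each other.

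**Figure D4:**
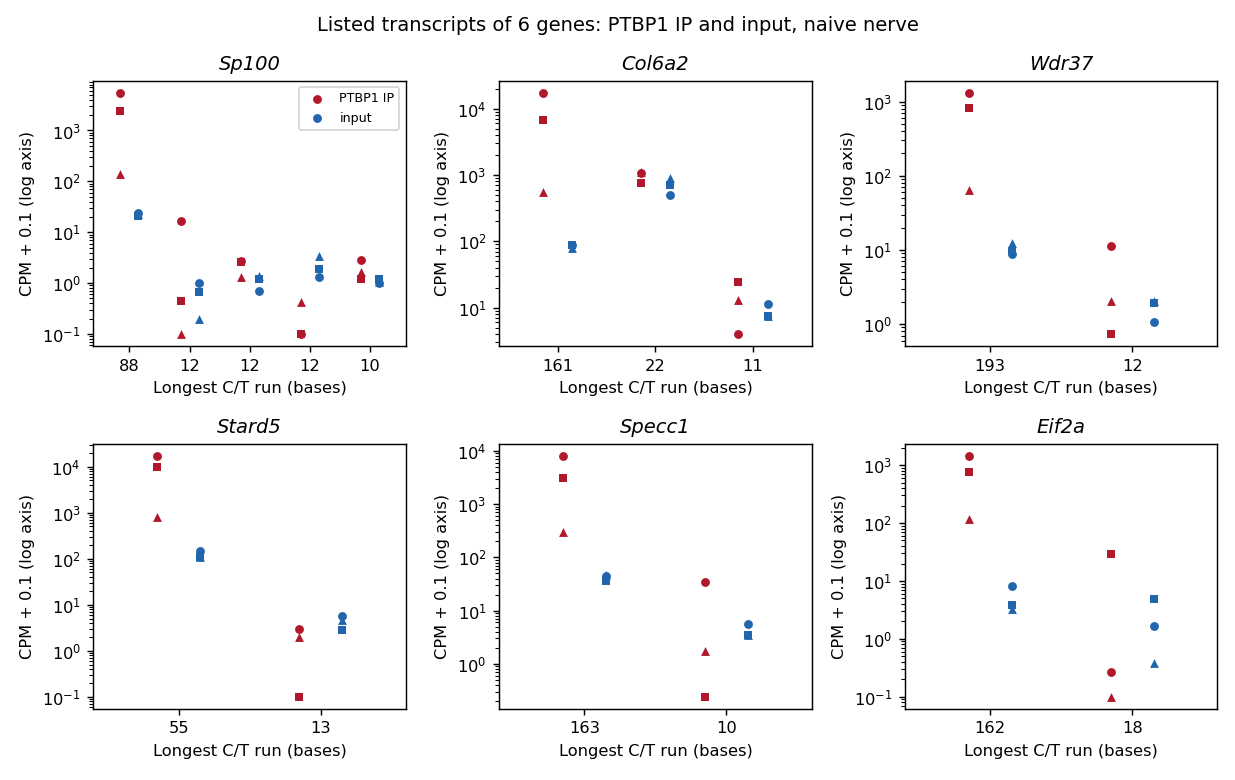
Level of every listed transcript of 6 of the 7 called genes with more than 1 listed transcript (Bgn, described above, is not drawn), in the 3 naive PTBP1 IP (left of each pair) and 3 naive input libraries (right), as CPM + 0.1 on a log axis, ordered by the longest C/T run of the transcript, with replicates 1 to 3 by marker shape. In each of these 6 the transcript with the longest run is the one called, as in Sp100 where it is the 88-base run.

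The 26 transcripts were also found in the blocked IP. Their medians were 7200, 3430 and 326 CPM in IP libraries 1 to 3 and 511, 392 and 128 CPM in blocked libraries 1 to 3, so that blocked libraries 1 and 2 lay above IP library 3. In blocked IP over input 25 of the 26 had a log2 fold change above 0. The lowest value was -0.82 for Kdm5d and the highest 7.38 for Shank1. No transcript passed the test in blocked IP over input (0 of 12393, percent called 0): edgeR's lowest adjusted p was 0.0637, 1821 transcripts had an unadjusted p under 0.05, DESeq2 called 1145 and limma voom with sample weights 0. IP over input and blocked IP over input share the input libraries. Against the blocked IP itself, 213 transcripts were higher in IP, 1.72% of those tested, and 7 of the 26 were among them: Kdm5d, Urod, Dhx40, Mob3b, Ddn, Gldn and Kank2. Kdm5d had the largest such difference of the 7, a log2 fold change of 5.14 ± 0.9 (SE, edgeR adjusted p = 0.0222), with 6.65, 22.7 and 15.1 CPM in blocked IP. Gldn had 18800, 12700 and 1070 CPM in IP and 1220, 1500 and 616 CPM in blocked IP, which overlap through IP library 3, a difference of 3.28 ± 0.74 (SE, edgeR adjusted p = 0.039). Urod, at 47.4, 57 and 36.2 CPM in blocked IP, differed by 4.25 ± 0.96 (SE, edgeR adjusted p = 0.0392). Shank1 had 16100, 6880 and 804 CPM in IP and 7830, 2610 and 424 CPM in blocked IP, which also overlap, and its difference of 1.13 ± 1.03 (SE) did not pass (edgeR adjusted p = 0.648). Ulk3, Eif2a and P4ha2 differed from the blocked IP by 0.91, 1.41 and 0.57 on the log2 scale and did not pass either. For runs of 100 bases or more the median ratio of all transcripts to input was 2.72, 0.58 and -0.05 in blocked libraries 1 to 3. It was 0.54, 0.51 and 0.13 for runs of 75 to 99 bases and -0.22, -0.6 and -0.24 for 50 to 74. In injured blocked libraries 1 to 3 the median ratio to injured input was 2.98, 2.83 and 0.56 for runs of 100 bases or more. Naive blocked library 1 was the one with the high adipocyte sum given above, and its part in the naive values was not tested. The count over blocked IP was also unstable: 13 were called higher with the replicate number as a term, 0 with at least 20 counts asked of all 6 libraries, and 6, 12 and 713 without blocked library 1, 2 and 3 in turn.

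The same transcripts were above input in PTBP1 IP from injured nerve, and were also high in the injured blocked IP. The injured libraries are not among the naive groups, but both contrasts came from the same fit of 18 libraries. That fit shared an estimate of the spread, so the naive and injured calls were not independent. Of the 26, 23 were called higher in injured PTBP1 IP than in injured input, against 119 of 12393 (0.96%) of all tested transcripts in that contrast. The exceptions were P4ha2, Gldn and Chl1, with edgeR adjusted p-values of 0.058, 0.0545 and 0.0866. All 26 were above the injured inputs in all 3 injured IP libraries. Their log2 fold changes in injured nerve ran from 2.98 to 7.06 with a median of 5.63, against 6.36 in naive nerve. The medians of the 26 were 1180, 1280 and 336 CPM in injured IP libraries 1 to 3, 530, 652 and 100.0 CPM in injured blocked IP, and 32.9, 27.6 and 27.5 CPM in injured input. Blocked libraries 1 and 2 thus lay above injured IP library 3, and injured IP over injured blocked IP was not tested. Shank1 had 2850, 1990 and 737 CPM in injured IP. With blocked antibody it had 4490, 5550 and 377 CPM, and injured input had 24.9, 4.43 and 12.7 CPM, so that blocked libraries 1 and 2 exceeded every injured IP library. Urod had 2020, 1630 and 132 CPM in injured IP. With blocked antibody it had 151, 180 and 37.7 CPM, and injured input had 9.96, 14.7 and 11 CPM. As in naive nerve, library 3 of the IP gave the lowest values. No transcript passed an edgeR test of the difference between the naive and the injured contrast, and 272 of 12393 had an unadjusted p under 0.05 there. The injured calls also rested on single libraries: none was made without injured IP library 1 or without any one injured input, 3 without injured IP library 2 and 372 without injured IP library 3.

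**Figure D5:**
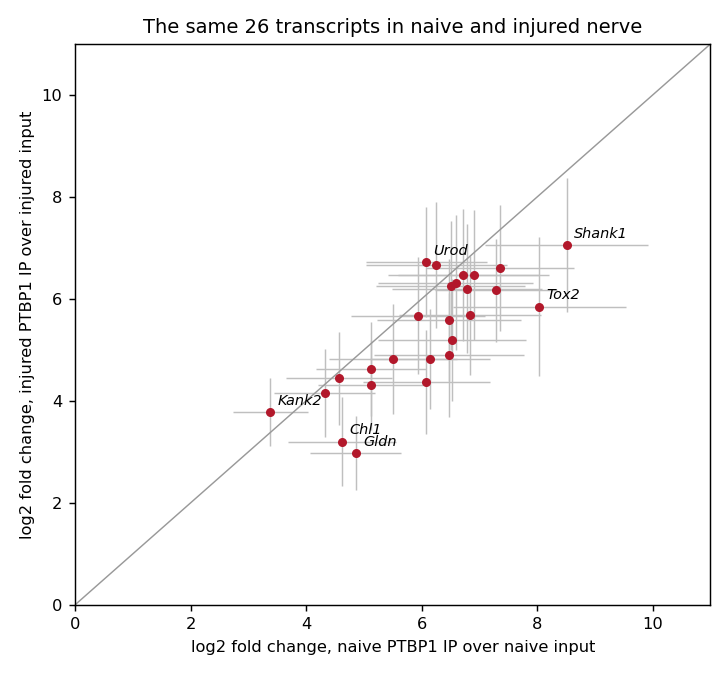
Log2 fold change of the 26 transcripts in naive PTBP1 IP over naive input (x axis) and in injured PTBP1 IP over injured input (y axis), with bars of 1 standard error and the line of equality. The lowest lies at 2.98 on the y axis (Gldn) and at 3.38 on the x axis (Kank2).

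Known partners and targets of PTBP1 held no called member. Ptbp1 itself was not analysed here, since no transcript of it was in the joined table. Ptbp2, the neuronal paralog, had 91.7, 174 and 66.7 CPM in IP and 113, 89.1 and 81.5 CPM in input, and Ptbp3 had 27.4, 40.9 and 38.6 CPM in IP and 29.2, 34.2 and 50.6 CPM in input. Neither passed the test. Of 24 published PTBP1 targets, 16 were measured, none was called, and their median log2 fold change was 0.21, against -0.04 for all tested transcripts. The largest was that of Tpm2, with 20, 1.76 and 1.4 CPM in IP and 1.37, 1.68 and 0.382 CPM in input. Igf1r, the IGF1 receptor, had 227, 92.9 and 51.9 CPM in IP and 23.3, 22.9 and 36.8 CPM in input (log2 fold change 2.16, edgeR adjusted p = 0.602). Tpm2 and Igf1r were named after their values were seen.

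None of 26 measured axonal mRNAs was called, and their median log2 fold change was -0.51. Kpnb1 encodes importin β1, whose axonal mRNA responds to nerve injury, and had 213, 126 and 235 CPM in IP and 258, 269 and 261 CPM in input. Rhoa, a small GTPase of the growth cone, had 1550, 1200 and 1630 CPM in IP and 795, 732 and 871 CPM in input; its groups did not overlap, but its log2 fold change of 0.87 did not pass (edgeR adjusted p = 0.655). It carries a 53-base run. Mtor had 67.6, 72.9 and 26.2 CPM in IP and 35.3, 34.3 and 30.5 CPM in input. The listed Stat3 transcript was near 0 throughout, at most 0.24 CPM in IP and 1.34 CPM in input. Ncl, which encodes nucleolin, had 487, 189 and 309 CPM in IP and 372, 262 and 221 CPM in input.

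Several lists of housekeeping mRNAs lay below the median of all transcripts. Of 79 ribosomal protein mRNAs, which are short and begin with a brief terminal oligopyrimidine motif, none was called. Their median log2 fold change was -0.94, 12 were lower at an unadjusted p under 0.05, beside 239 of all 12393 tested, and none higher, and 20 of the 79 had all IP libraries below all inputs, against 13.3% of all tested transcripts. The medians were -0.52 for 69 mRNAs of the nuclear-encoded respiratory chain and -0.93 for 13 histone mRNAs, again with none called. Coregulators of chromatin and transcription, whose median length was 8270 bases, had a median of 0.51 (32 measured, none called). Beside the 0.21% called higher of all tested, 1 of 16 myelin mRNAs was called, Gldn, with a median of -0.34. Drp2, a myelin protein of the dystrophin complex with a 57-base run, had 4570, 2500 and 637 CPM in IP and 437, 474 and 629 CPM in input without passing (edgeR adjusted p = 0.144). Of 32 collagens and matrix mRNAs 2 were called, Bgn and Col6a2, against the same 0.21%, with a median of 0.19. Among 23 motors and transport adaptors none was called and the median was 0.13. Kif1b, an axonal kinesin with a 58-base run, had 2730, 1320 and 173 CPM in IP and 123, 165 and 208 CPM in input (edgeR adjusted p = 0.184), so that IP library 3 fell among the inputs. Drp2 and Kif1b were named after their values were seen.

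Markers of other cell types were measured beside these lists. Of 8 measured neuronal markers, 19 macrophage markers, 16 endothelial and pericyte markers, 5 skeletal muscle markers and 4 red blood cell markers none was called. Their median log2 fold changes were 0.53, -0.17, 0.11, 0.36 and -1.08. Adipocyte markers had a median of 0.64 in IP over input and 3.94 in blocked IP over input. The 8 neuronal markers had a median of 2.77 in blocked IP over input, and their summed level was 519, 132 and 138 CPM in IP, 2513, 253 and 106 CPM in blocked IP, and 227, 153 and 145 CPM in input. The part of these markers in the values of blocked IP was not tested. Among defining markers, Mbp had 158, 37 and 22.9 CPM in IP and 29.7, 24.5 and 20.4 CPM in input, and Nefl had 68.5, 31 and 21.1 CPM in IP and 46.3, 18.2 and 25.3 CPM in input. Col1a1 had 15000, 9780 and 6600 CPM in IP and 4450, 4230 and 5810 CPM in input, with a log2 fold change of 1.11 that did not pass (edgeR adjusted p = 0.761).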

How the data were processed

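RNA of mouse sciatic nerve axoplasm was sequenced after PTBP1 IP, after IP with peptide-blocked antibody and from input. The authors deposited raw whole-number counts per Ensembl transcript, per the file headers; reads came from CASAVA 1.8.2, edgeR was used, and mm10 and GRCm38 are named, per the submitters' processing notes. No source used here names the aligner or counting tool, or says how strand, repeats and reads shared by several transcripts were handled. The deposited tables had been filtered: each transcript of the PTBP1 table reached 5 counts throughout the 3 libraries of some group, and each of the input table reached 5 in injured inputs 2 and 3. The tables held 15041 and 15006 transcripts and shared 12399, which were joined by identifier and scaled together here. Another 132 columns of per-sample values were not used. The third naive blocked column carries the letters PCP; a second deposited table names the column ctrl3 and holds identical counts over its 10954 transcripts, so it was read as naive blocked library 3.

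Tests used edgeR 4.0.16 (R 4.3.3; TMM, filterByExpr, quasi-likelihood F-test, two-sided, Benjamini-Hochberg adjustment) in a fit of the 12 PTBP1 and 6 input libraries, without a term for the replicate number; 12393 transcripts passed the filter. DESeq2 1.42.0 and limma 3.58.1 served as alternatives. CPM are TMM-scaled. The spread between libraries was large, with a biological coefficient of variation of 0.995. No spike-in is described, so every difference is in share of RNA, not in amount. The script was tested on simulated counts. Annotation and sequences came from GENCODE M21 (GRCm38), which held 12177 (98.2%) of the joined transcripts. The 30-base window shown for a transcript has the most C and T, then the most bases in TCTT or CTCT, then is the first. For a gene on a list, the tested transcript of highest mean level was used.

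Transcripts were named by rule: up to 12 higher and 12 lower with the largest fold change, no overlap between groups and a mean of at least 10 CPM; up to 10 called over both input and blocked IP; fixed genes of interest; and up to 4 called members of each list with the defining markers. The members and lists were chosen with earlier results of these data known. Each SE was derived from the test, as the absolute log2 fold change divided by the square root of its F statistic. P-values and SE rest on the spread within groups over all 18 libraries of the fit, with 3 samples of pooled nerves a group. They do not measure the spread of the 6 libraries compared alone. A few items of the named rule are not reported here.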

Additional observations from a re-analysis of the deposited data

How the results depend on the processing

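The calls of naive IP over input moved with the processing (27 in all). There were 1 with DESeq2's size factors, 400 with DESeq2, 0 in the fit of only the 6 libraries compared or of only the 9 naive libraries, 43 with Yam1, Lars2 and Gm15564 taken out and 158 with limma voom and sample weights. Leaving out 1 library gave 0 to 209 (0 for each input and for IP 1 or 2). Blocked IP over input (0 calls) gave 2 with library totals, 1145 with DESeq2 and, leaving out 1 library, 0 to 528 (528 without blocked library 3). IP over blocked IP (216 calls) gave 84 with library totals, 1450 with DESeq2, 0 with at least 20 counts, with the 6 libraries compared or with the 9 naive libraries, 1 with limma voom, 75 with counts summed per gene and, leaving out 1 library, 7 to 792 (135 and 416 without IP library 1 or 3). Injured IP over injured input (127 calls) gave 197 with DESeq2's size factors, 81 with library totals, 669 with DESeq2, 227 with at least 20 counts, 877 with the 6 libraries compared, 3879 with limma voom and, leaving out 1 library, 0 to 372. The injured contrast, limma voom and the sums per gene were added after seeing the data. No direction of a named called transcript reversed under any alternative that measured it. Of the 27, 27 were called with DESeq2 and without IP library 3, 23 with library totals and 21 with limma voom. With library totals the median log2 fold change of all transcripts was -0.39, against -0.04 with TMM.

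With the replicate number as a block, IP over input gave 42 calls, 25 of them among the 27, blocked IP over input 5, IP over blocked IP 14 and the injured contrast 161. The series describes independent repeats with input kept from each sample, but no source used here says that the numbers pair the libraries. The block was therefore an alternative only. Same-numbered naive IP and input libraries deviated together weakly (correlations of 0.102, 0.073 and 0.095), against -0.085 to 0 for different numbers. For naive IP and blocked IP the correlations were 0.073, 0.046 and 0.169, against -0.094 to 0.008. Each IP library thus correlated best with its own number, and pairing may hold.

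The share of higher transcripts with an all-pyrimidine window was 84.6%. It was 82.1% with at least 20 counts and 90% in transcripts of 1000 to 3000 bases. It was 53.4% of those called by DESeq2, 63% by limma voom, 67.6% without IP library 3 and 65.3% in the injured contrast. These shares are all of transcripts higher than in input. Of the 213 called higher in IP than in blocked IP, the share was only 24.9%, against 7.19% of all tested transcripts. That share was 12.3%, 17.7% and 29.1% without IP library 1, 2 and 3 in turn. The median CTCTCT density of 1.32 per 1000 bases was 5.68 in transcripts of 1000 to 3000 bases (0.36 in all tested of that length) and 0.87 in those called higher by DESeq2. Depth limits lowly counted transcripts: those with no count in an IP library cannot be placed below 3 counts.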
